A study of Danio rerio with 4 samples.

Results

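The sarcomeric actins and the alpha-actinins of muscle were followed in RNA-sequencing data of nexn-deficient zebrafish embryos. Members were the genes that the deposited tables name acta1a, acta1b, actc1a, actc1b, actc1c, ACTC1, actn2b, actn3a and actn3b. These 9 symbols stand for 10 of the 32057 gene identifiers of the tables, because actc1a is given to a pair of identifiers. Of these, 9 identifiers passed the filter on low counts, 6 of actins and 3 of alpha-actinins, among 20312 tested genes.

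Whole embryos at 72 hours post fertilization (hpf) were compared, with 2 libraries of nexn-/- and 2 libraries of nexn+/+ embryos and RNA of 25 pooled embryos in each library. The nexn-/- line carries a CRISPR/Cas9-induced deletion of 32 nucleotides in exon 2 of nexn, which leads to a premature stop codon within the first actin-binding domain of Nexilin. Embryos of each genotype came from incrosses of nexn-/- adults and of nexn+/+ adults that were kept in separate tanks and descended from a heterozygous pair, so genotype, parents and tank cannot be told apart. The labels call the libraries of a genotype biological replicates and do not say whether they came from separate clutches, so p-values measure only the spread between these pools.

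Sarcomeric actin forms the thin filament on which myosin pulls. Alpha-actinin crosslinks the ends of thin filaments of neighbouring sarcomeres at the Z-disc, where Nexilin, an actin-binding protein, is also found. In humans, ACTA1 is the main actin of adult skeletal muscle and ACTC1 that of the heart, whereas ACTN2 serves heart and skeletal muscle and ACTN3 is restricted to fast skeletal fibres. Zebrafish carry several copies of most of these genes, and names such as actc1 and acta1 mark sequence relationship and do not fix the muscle in which a copy is used.

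The 4 libraries held between 19413597 and 21956272 estimated counts. Levels are given as CPM, which are counts relative to a library total that was corrected by TMM for genes taking up many reads, and as deposited TPM, which is also scaled to gene length and allows genes to be compared. A gene was called where the quasi-likelihood test of edgeR, adjusted after Benjamini and Hochberg, gave an adjusted p under 0.05 and the log2 fold change (log2(FC)) exceeded 0.5 in either direction. nexn, the targeted gene, had 40.2 and 51.0 CPM in nexn-/- embryos, against 96.3 and 75.4 CPM in nexn+/+ embryos. It was called lower (log2(FC) -0.91, standard error 0.168, adjusted p = 0.00737, edgeR). The paper describes nexn mRNA as unaltered by qPCR, by in situ hybridization at an earlier stage and in its own test of these RNA-sequencing data. The RNA-sequencing values it prints for nexn nevertheless pass its own limits for a lower gene (adjusted p under 0.05, log2(FC) below -0.5). In both tests of these data nexn was thus lower in nexn-/- embryos. Chi-square per degree of freedom between replicates was 5.79 in nexn-/- embryos and 53.8 in nexn+/+ embryos, so the nexn+/+ libraries stood further apart than the nexn-/- libraries.

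Muscle markers differed widely between the nexn+/+ libraries. Summed counts of 20 fast fibre marker symbols reached 61032 and 65340 CPM in nexn-/- embryos, against 100913 and 44941 CPM in nexn+/+ embryos. Slow fibre markers summed to 2185 and 2356 CPM in nexn-/- embryos, against 1762 and 760 CPM in nexn+/+ embryos. Heart markers were low throughout and lower in the controls. Over 12 symbols they summed to 94.0 and 96.3 CPM in nexn-/- embryos, against 14.5 and 11.4 CPM in nexn+/+ embryos. Of these heart genes, nppb and gata4 had no count in either nexn+/+ library, and nkx2.5 and myh6 had none in one of them. In nexn-/- embryos gata4 had only 4 and 3 counts, nkx2.5 had 8 and 14 and myh6 had 8 and 6. Other heart genes were counted in nexn+/+ embryos, such as hand2 (86 and 76 counts) and tnnt2a (47 and 48). Counts in nexn+/+ embryos were lower for myl7 (26 and 14), nppa (11 and 6) and tnnc1a (6 and 4). In RNA of whole embryos, fewer cells of a muscle type and less RNA per cell cannot be told apart.

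The actin gene actc1b dominated in every library. actc1b reached 16268 and 16647 TPM in nexn-/- embryos and 20308 and 8698 TPM in nexn+/+ embryos, and took 1.58% and 1.63% of all counts in nexn-/- embryos and 2.0% and 0.818% in nexn+/+ embryos. By TPM it ranked 3 and 3 among all genes in nexn-/- embryos and 3 and 6 in nexn+/+ embryos. acta1b followed with 2192 and 2224 TPM in nexn-/- embryos and 3733 and 1711 TPM in nexn+/+ embryos. Next in mean TPM stood actc1a, actn3a, acta1a, actn3b, ACTC1, actc1c and actn2b, and this order held in all 4 libraries except that actc1c lay above ACTC1 in nexn+/+ replicate 2.

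The gaps in this order were uneven. In nexn+/+ embryos, the TPM ranges of actc1a and actn3a, of actn3a and acta1a, of acta1a and actn3b and of ACTC1 and actc1c overlapped. No neighbours overlapped in nexn-/- embryos. actn2b closed the list with 4.48 and 4.13 TPM in nexn-/- embryos and 1.24 and 2.56 TPM in nexn+/+ embryos, which placed it at rank 12463 and 12673 of all genes in nexn-/- embryos and at 16055 and 13974 in nexn+/+ embryos.

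Replicates of nexn-/- embryos were close for all members and replicates of nexn+/+ embryos were not. The higher nexn-/- library exceeded the lower by 1.0-fold to 1.1-fold over the 9 tested members, with a median of 1.05-fold. In nexn+/+ embryos the corresponding fold ran between 1.58 in actn2b and 5.5 in ACTC1, with a median of 2.74. A gap of more than 2-fold between nexn+/+ libraries was found in 8 of 9 members (88.9%), compared to 3.08% of the 10646 tested genes that averaged 10 CPM or more, whose median fold was 1.12. The gap was not particular to the members, as the summed fast fibre markers differed 2.25-fold by CPM between the nexn+/+ libraries. In 8 of 9 members nexn+/+ replicate 1 was the higher library, actn2b being the exception. For 5 members both nexn-/- libraries fell between the nexn+/+ libraries.

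**Figure D1:**
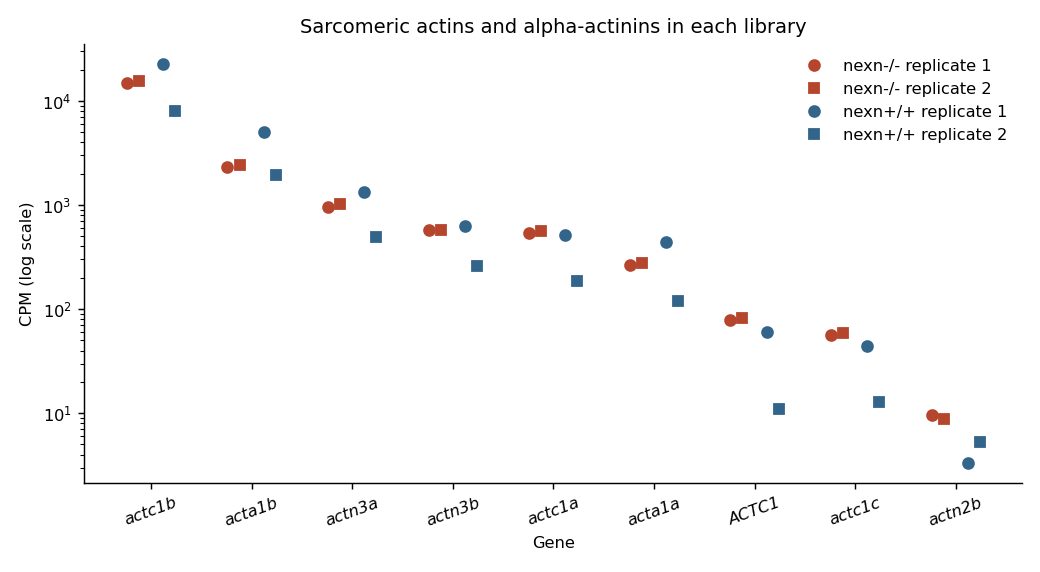
Level of each tested sarcomeric actin and alpha-actinin in CPM (log scale) in the 4 libraries, red for nexn-/- and blue for nexn+/+, with circles for replicate 1 and squares for replicate 2. The red symbols of a gene nearly coincide, whereas the blue symbols are 2.42-fold to 5.5-fold apart in all genes but actn2b.

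Between genotypes, 1 of the 9 tested members was called higher in nexn-/- embryos, actn2b, and 0 were called lower (quasi-likelihood test of edgeR, Benjamini-Hochberg adjusted). Of all 20312 genes, 16.7% were called higher and 13.9% lower. No member was lower at an unadjusted p under 0.05 either, and DESeq2 and limma-voom also called actn2b alone and 0 members lower. The median log2(FC) of the members was 0.37, compared to 0.02 over all tested genes. Standard errors of the other 8 members ran between 0.362 and 0.63 on the log2 scale.

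The outcome depended on single nexn+/+ libraries. Without nexn+/+ replicate 1, 8 members were called higher, all except acta1b. Without nexn+/+ replicate 2, actn2b was called higher and acta1a, acta1b and actc1b were called lower. Without either of the nexn-/- libraries, 0 members were called, and only 4 genes of the whole table were called higher and 0 lower in each of these fits. Each of these fits assumes that the lone library of a genotype varies like the pair of the other genotype. With library totals alone as the scale, 4 members were called higher (ACTC1, actc1a, actc1c and actn2b).

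**Figure D2:**
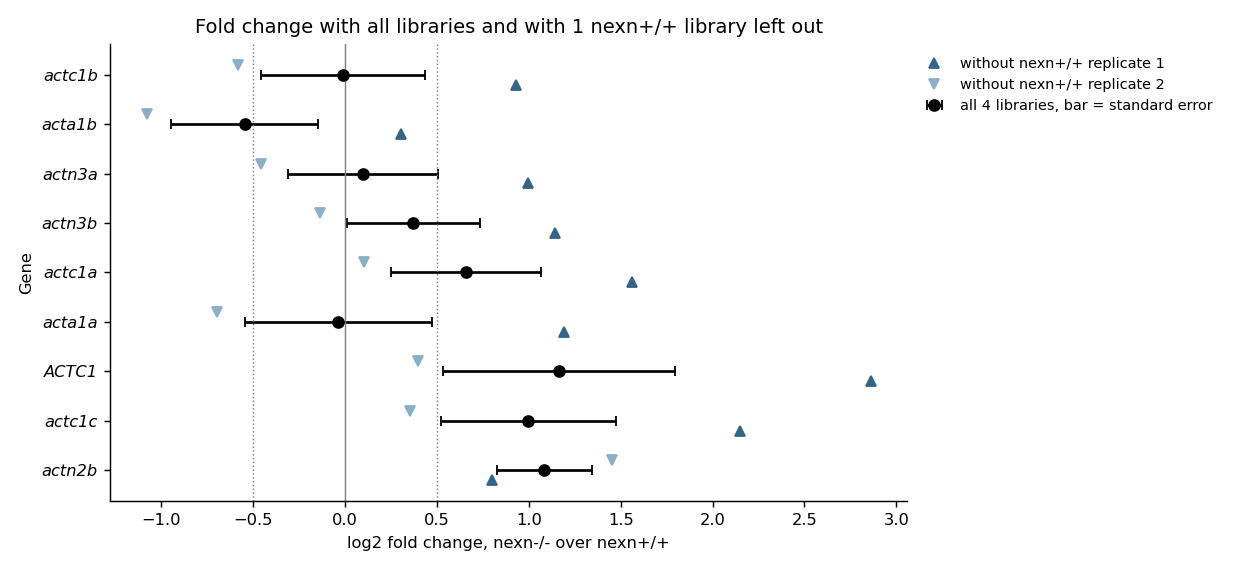
Log2 fold change of nexn-/- over nexn+/+ for each tested member with all 4 libraries (black, bar = standard error of edgeR) and with either nexn+/+ library left out (triangles), with dotted lines at the limits of -0.5 and 0.5. For actc1b the value moves between -0.58 and 0.93 with the nexn+/+ library kept, whereas actn2b stays above 0.5.

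actn2b, a zebrafish copy of the Z-disc alpha-actinin ACTN2, was the only member with a call. It had 215 and 200 estimated counts in nexn-/- embryos, against 59 and 105 in nexn+/+ embryos, which were 9.65 and 8.75 CPM in nexn-/- embryos and 3.34 and 5.29 CPM in nexn+/+ embryos. Both nexn-/- libraries lay above both nexn+/+ libraries, and the fold change was 2.12 (log2(FC) 1.08, standard error 0.258, adjusted p = 0.0183, quasi-likelihood test of edgeR, Benjamini-Hochberg adjusted). Unlike the other members, actn2b was lower in nexn+/+ replicate 1, where the fast fibre markers were highest, than in replicate 2. With all libraries and other settings its log2(FC) ran between 0.97 and 1.22, with an adjusted p between 0.00737 and 0.867, and among the settings in which it was tested the call was lost only on scaling to the fast fibre markers. A filter at a mean of 10 CPM left actn2b out of the test. Without nexn-/- replicate 1 its adjusted p was 0.178 (log2(FC) 1.02), and without nexn-/- replicate 2 it was 0.138 (log2(FC) 1.16).

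Heart markers were also higher in nexn-/- embryos. Between the nexn+/+ libraries, their sum was higher in replicate 1 (14.5 against 11.4 CPM), where actn2b was lower (3.34 against 5.29 CPM). Of all tested genes, 36.4% had both nexn-/- libraries above both nexn+/+ libraries. Among 9 tested heart genes, the test called 8 higher and 0 lower, compared to 16.7% and 13.9% of all tested genes (edgeR). DESeq2 and limma-voom also gave 8 and 0, and 0 were lower at an unadjusted p under 0.05. nppa, the atrial natriuretic peptide gene, had 10.6 and 8.92 CPM in nexn-/- embryos, against 0.623 and 0.302 CPM in nexn+/+ embryos (log2(FC) 4.41, adjusted p = 0.00103, edgeR). nppb, which encodes a related natriuretic peptide, had 21 and 13 counts in nexn-/- embryos and none in nexn+/+ embryos, at least 4.7-fold higher against a floor of 3 counts per library. myl7, a myosin light chain of the heart, had 19.6 and 17.9 CPM in nexn-/- embryos, against 1.47 and 0.706 CPM in nexn+/+ embryos. Summed heart markers were 7.34-fold higher in nexn-/- embryos, whereas actn2b differed by 2.12-fold. The low levels in nexn+/+ embryos were not set against other data of whole embryos. How much heart tissue each nexn+/+ pool held is not known. By qPCR, the paper also found cmlc1, tnnt2a and tnnt2c higher in nexn-/- embryos. Its staining at 72 hpf showed a differentiated ventricle and atrium in both genotypes. The part of heart RNA in the actn2b result was not tested.

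The remaining alpha-actinins, actn3a and actn3b, are copies of the fast fibre gene ACTN3 and were not called. actn3a had 951 and 1018 CPM in nexn-/- embryos and 1347 and 495 CPM in nexn+/+ embryos (log2(FC) 0.10, standard error 0.408, adjusted p = 0.88). actn3b had 574 and 571 CPM in nexn-/- embryos and 627 and 259 CPM in nexn+/+ embryos (log2(FC) 0.37, standard error 0.362, adjusted p = 0.463, edgeR for both). In both genes the nexn-/- libraries lay between the nexn+/+ libraries. Without nexn+/+ replicate 1 the log2(FC) was 0.99 for actn3a and 1.14 for actn3b, and without nexn+/+ replicate 2 it was -0.46 and -0.14.

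actc1b and both acta1 copies overlapped between genotypes as well. actc1b had 14820 and 15626 CPM in nexn-/- embryos and 22701 and 7998 CPM in nexn+/+ embryos (log2(FC) -0.01, standard error 0.447, adjusted p = 0.986). acta1b had 2331 and 2444 CPM in nexn-/- embryos and 5028 and 1937 CPM in nexn+/+ embryos (log2(FC) -0.54, standard error 0.400, adjusted p = 0.329). acta1a had 268 and 279 CPM in nexn-/- embryos and 442 and 120 CPM in nexn+/+ embryos (log2(FC) -0.04, standard error 0.508, adjusted p = 0.964, edgeR for all). The nexn-/- libraries lay between the nexn+/+ libraries in each of these genes, and the sign of the actc1b and acta1a values was positive under library size alone, upper quartile scaling, fast fibre scaling and limma-voom.

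The other sarcomeric actins had both nexn-/- libraries above both nexn+/+ libraries without passing the test. For actc1a (ENSDARG00000042535) 543 and 562 CPM were measured in nexn-/- embryos, against 513 and 187 CPM in nexn+/+ embryos (log2(FC) 0.66, standard error 0.408, adjusted p = 0.25). ACTC1, which the tables write in capitals like the human gene, had 78.7 and 81.6 CPM in nexn-/- embryos, against 60.7 and 11.04 CPM in nexn+/+ embryos (log2(FC) 1.17, standard error 0.63, adjusted p = 0.194). actc1c had 55.8 and 58.4 CPM in nexn-/- embryos, against 44.6 and 12.9 CPM in nexn+/+ embryos (log2(FC) 1.00, standard error 0.476, adjusted p = 0.148, edgeR for all). Including actn2b, 4 of 9 members were thus without overlap and higher in nexn-/- embryos, and 0 were lower, compared to 36.4% of all tested genes above and 34.4% below.

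Reads of near-identical actin copies can be divided among them by the counting program, which limits values of single actins. The second identifier named actc1a (ENSDARG00000076126) had 0 and 2.77 estimated counts in nexn-/- embryos and 7.51 and 0 in nexn+/+ embryos and was not tested. Together with ENSDARG00000042535 it gave whole numbers, 12113 and 12843 counts in nexn-/- embryos and 9061 and 3710 in nexn+/+ embryos, so reads were divided between this pair. The other 8 of 10 identifiers had whole counts in all 4 libraries. Names of the copies also differ between sources. A separate gene name table calls ENSDARG00000076126 actc1c, gives acte1 for the identifier the deposited tables call actc1c (ENSDARG00000079111), and writes ACTA1 for acta1a and acta1b.

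Sums over the copies do not depend on such a division. All sarcomeric actins together reached 18096 and 19051 CPM in nexn-/- embryos and 28790 and 10266 CPM in nexn+/+ embryos, a ratio of means of 0.951. By TPM the sums were 19444 and 19851 in nexn-/- embryos and 24898 and 10731 in nexn+/+ embryos, a ratio of 1.1. The 3 alpha-actinins summed to 1535 and 1598 CPM in nexn-/- embryos and 1977 and 759 CPM in nexn+/+ embryos, a ratio of 1.14. In both sums the nexn-/- libraries lay between the nexn+/+ libraries. The cytoplasmic actins actb1 and actb2, which build the cytoskeleton of all cells, summed to 9052 and 9389 CPM in nexn-/- embryos and 8264 and 7271 CPM in nexn+/+ embryos.

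Between nexn+/+ replicates, the proportions of the tested sarcomeric actins were steadier than their levels, and several differed between genotypes. These proportions are a description, because with 2 against 2 libraries an exact permutation test cannot give a two-sided p below 0.333. acta1b made up 11.3% and 11.2% of sarcomeric actin TPM in nexn-/- embryos, against 14.99% and 15.94% in nexn+/+ embryos. actc1b made up 83.7% and 83.9% in nexn-/- embryos, against 81.6% and 81.1% in nexn+/+ embryos. actc1a made up 3.15% and 3.07% in nexn-/- embryos, against 1.85% and 1.85% in nexn+/+ embryos. In all 3 genes the gap between genotypes was wider than the gap between replicates, although the level of actc1b differed 2.84-fold between the nexn+/+ libraries.

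The rare actins had larger relative differences. Per 100 TPM of actc1b, ACTC1 stood at 0.439 and 0.427 in nexn-/- embryos, against 0.216 and 0.109 in nexn+/+ embryos. actc1c stood at 0.374 and 0.366 per 100 in nexn-/- embryos, against 0.190 and 0.153 in nexn+/+ embryos. actc1a stood at 3.77 and 3.66 per 100 in nexn-/- embryos, against 2.26 and 2.29 in nexn+/+ embryos, a ratio of means of 1.63. acta1b was the one actin with the opposite sign, with 13.5 and 13.4 per 100 in nexn-/- embryos and 18.4 and 19.7 in nexn+/+ embryos, a ratio of 0.705. acta1a overlapped, with 1.47 and 1.43 per 100 in nexn-/- embryos and 1.55 and 1.16 in nexn+/+ embryos. Of these 5 actins, 3 were thus higher and 1 lower without overlap. By counts per actc1b count, 15.9% of all tested genes lay above and 12.2% below. These shares depend on the divisor, since by CPM they were 36.4% and 34.4%. Genes that follow the gap of actc1b between nexn+/+ libraries are less affected by it, so the shares are not a like rate for the actins.

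**Figure D3:**
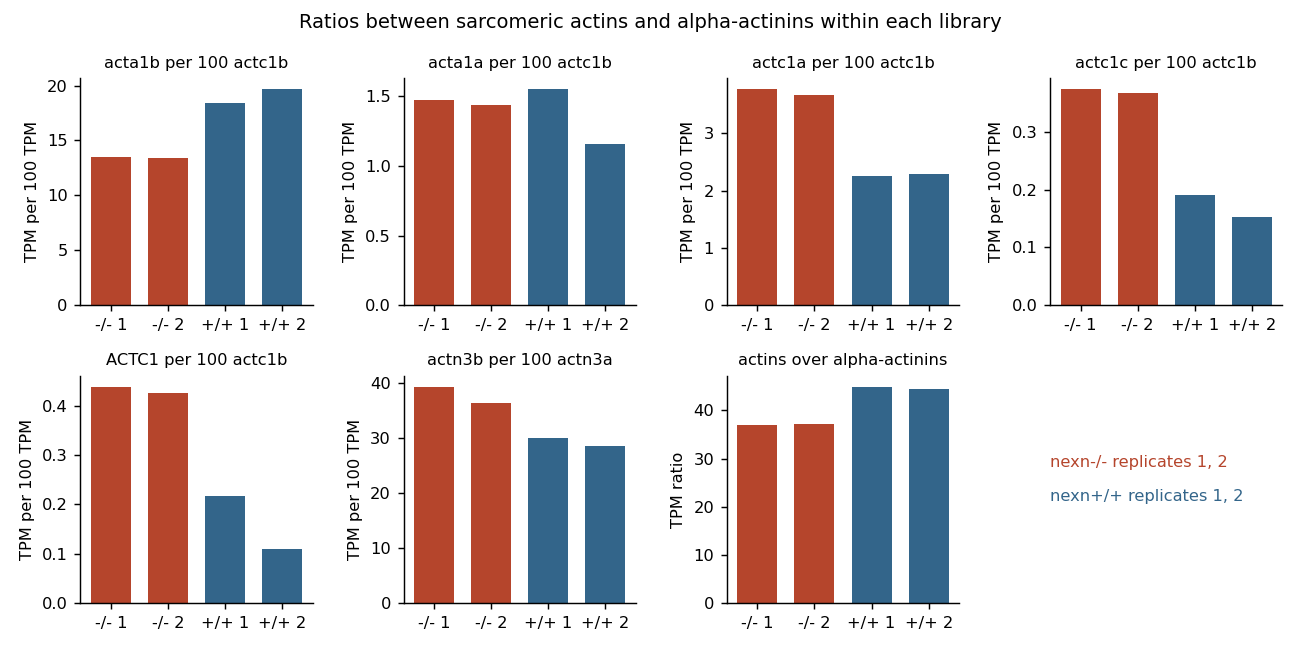
Ratios of deposited TPM between sarcomeric actins, between alpha-actinins and of the summed actins over the summed alpha-actinins, 1 bar for each library, red for nexn-/- replicates 1 and 2 and blue for nexn+/+ replicates 1 and 2. The acta1b and the actin over alpha-actinin bars are lower in nexn-/- embryos, the acta1a bars overlap, and the others are higher in nexn-/- embryos.

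Proportions among the alpha-actinins and between both families also differed between genotypes. Per 100 TPM of actn3a, actn3b stood at 39.4 and 36.5 in nexn-/- embryos, against 30.1 and 28.5 in nexn+/+ embryos. By estimated counts the gap was smaller, with 60.4 and 56.1 in nexn-/- embryos and 46.5 and 52.4 in nexn+/+ embryos. The counting program gave actn3b an effective length of 4579 and 4621 nucleotides in nexn-/- embryos and of 4629 and 5482 in nexn+/+ embryos, so its TPM in nexn+/+ replicate 2 was divided by a longer transcript. Summed actin over summed alpha-actinin TPM was 36.9 and 37.2 in nexn-/- embryos, against 44.9 and 44.5 in nexn+/+ embryos, a ratio of means of 0.829. By counts it was 11.8 and 11.9 in nexn-/- embryos and 14.6 and 13.5 in nexn+/+ embryos. actn2b contributed 0.851% and 0.774% of alpha-actinin TPM in nexn-/- embryos and 0.224% and 1.06% in nexn+/+ embryos, which overlapped.

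Set against fast muscle RNA, most members were higher in nexn-/- embryos. Per 1000 counts of the fast fibre markers, actc1b had 243 and 239 in nexn-/- embryos and 225 and 178 in nexn+/+ embryos. actc1a had 8.90 and 8.60 per 1000 in nexn-/- embryos and 5.08 and 4.16 in nexn+/+ embryos. actn3a had 15.6 and 15.6 per 1000 in nexn-/- embryos and 13.3 and 11.01 in nexn+/+ embryos, and actn3b had 9.40 and 8.75 in nexn-/- embryos and 6.21 and 5.76 in nexn+/+ embryos. On this scale 7 members lay above without overlap, acta1b lay below and acta1a overlapped. acta1b had 38.2 and 37.4 per 1000 in nexn-/- embryos and 49.8 and 43.1 in nexn+/+ embryos, and acta1a had 4.39 and 4.27 in nexn-/- embryos and 4.38 and 2.67 in nexn+/+ embryos. Of all tested genes, 25.4% lay above and 9.34% below in the same way. These shares depend on the divisor as well, since by CPM they were 36.4% and 34.4%. Genes that follow the fast fibre markers between nexn+/+ libraries are less affected by it, so the shares are not a like rate for the members. edgeR called 0 members on this scale, where 363 genes of the whole table were called higher and 34 lower.

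Genes with a pattern like that of actc1b were sought among 1484 genes that averaged 100 CPM or more, by the root mean square difference of centred log2 CPM over the 4 libraries. Closest were ckmt2b, a mitochondrial creatine kinase (0.0313), tmod4, a tropomodulin that caps thin filaments (0.0361), hsc70, a chaperone (0.0383), pkmb, a pyruvate kinase (0.0534), and pgam2, a phosphoglycerate mutase (0.0656). ckmt2b had 207 and 230 CPM in nexn-/- embryos and 317 and 112 CPM in nexn+/+ embryos, the same alternation between nexn+/+ libraries as actc1b. Of the members, actn3a was as close (0.0521), followed by acta1a (0.137), actn3b (0.187), acta1b (0.285), actc1a (0.330), actc1c (0.535), ACTC1 (0.781) and actn2b (0.861). Distances over 4 libraries take in both the gap between the nexn+/+ libraries and the difference between genotypes, since the nexn-/- libraries were nearly level. The gap between nexn+/+ libraries was 2.84-fold in actc1b, 2.74-fold in actc1a and 2.6-fold in acta1b. The distances of actc1a and acta1b from actc1b thus lay mainly in the difference between genotypes.

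**Figure D4:**
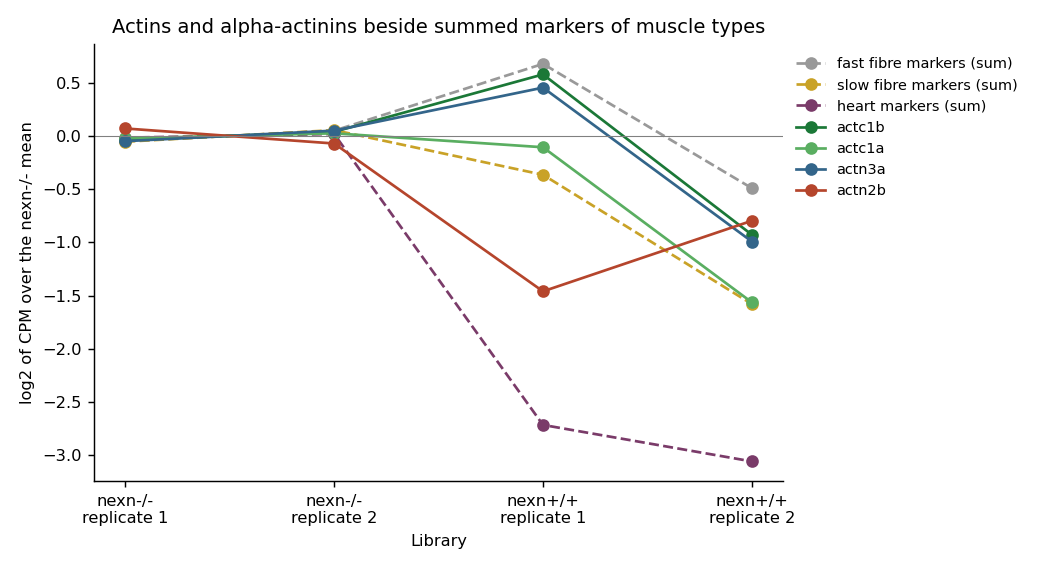
Log2 of CPM over the mean of the nexn-/- libraries for 4 members (solid lines) and for summed fast fibre, slow fibre and heart markers (dashed lines) in each library. actc1b and actn3a run with the fast fibre markers, above 0 in nexn+/+ replicate 1 and below 0 in replicate 2. actc1a runs near the slow fibre markers, and both lie below 0 in both nexn+/+ libraries, as do actn2b and the heart markers.

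Fibre type markers are given beside the rates over all tested genes, 16.7% called higher and 13.9% called lower (edgeR). Whether this or any later list departed from these rates was not tested. In the fast fibre list, 1 of 21 tested identifiers was called higher and 0 lower (edgeR; 1 lower at an unadjusted p under 0.05, 1 lower with DESeq2 and 0 with limma-voom), with a median log2(FC) of -0.04. The call was one of the identifiers named myhz1.1, a fast myosin heavy chain (log2(FC) 2.21). It had 72.3 and 80.2 CPM in nexn-/- embryos, against 18.1 and 14.97 CPM in nexn+/+ embryos. Its counts were not all whole (1611.33 in nexn-/- replicate 1), so reads were divided between it and other genes. The other myhz1.1 identifier had 7300 and 7455 CPM in nexn-/- embryos and 15537 and 5220 CPM in nexn+/+ embryos. That identifier was not called (log2(FC) -0.49, adjusted p = 0.439, edgeR). In the slow fibre list, 4 of 10 were called higher and 0 lower (edgeR, also 0 lower at an unadjusted p under 0.05, with DESeq2 and with limma-voom), with a median of 0.83. smyhc3, a slow myosin heavy chain, had 13.0 and 16.2 CPM in nexn-/- embryos, against 6.29 and 2.42 CPM in nexn+/+ embryos (log2(FC) 1.76). ryr1a, the calcium release channel of slow fibres, had 43.5 and 38.6 CPM in nexn-/- embryos, against 21.9 and 13.0 CPM in nexn+/+ embryos (log2(FC) 1.24). Without nexn+/+ replicate 1, 15 fast fibre identifiers were called higher, and without nexn+/+ replicate 2, 12 were called lower. The slow fibre count of calls higher was 9 without nexn+/+ replicate 1 and 4 without replicate 2, while library size alone gave 9, the replicate block gave 8 and scaling to the fast fibre markers gave 0.

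Actins and alpha-actinins outside the sarcomere gave 2 calls among 5 tested genes, both higher, and 0 lower (edgeR). At an unadjusted p under 0.05, with DESeq2 and with limma-voom, 0 were lower as well. The rates over all tested genes were 16.7% higher and 13.9% lower (edgeR). actn1, an alpha-actinin of focal adhesions and stress fibres, had 77.7 and 81.2 CPM in nexn-/- embryos, against 41.2 and 33.0 CPM in nexn+/+ embryos (log2(FC) 1.1, standard error 0.133, adjusted p = 0.00194, edgeR). actn4, the other non-muscle alpha-actinin, had 231 and 222 CPM in nexn-/- embryos, against 156 and 140 CPM in nexn+/+ embryos (log2(FC) 0.61, standard error 0.116, adjusted p = 0.00832, edgeR). Both calls were lost on scaling to the fast fibre markers (adjusted p = 0.762 for actn1 and 1.0 for actn4, edgeR). That scale carries the 2.25-fold gap of the fast fibre markers between nexn+/+ libraries into genes that lack it. Calls higher over all genes numbered 363 on it, compared to 3392 with TMM. acta2, the smooth muscle actin, followed the sarcomeric actins in its spread. It had 34.8 and 37.8 CPM in nexn-/- embryos and 27.3 and 10.9 CPM in nexn+/+ embryos (adjusted p = 0.0882, edgeR). Of 8 tested smooth muscle genes, mylka, a myosin light chain kinase, was called higher (log2(FC) 0.52) and smtnb, a smoothelin, lower (log2(FC) -0.77), with a median of 0.79. The mylka call was marginal (adjusted p = 0.0492, edgeR) and was lost with DESeq2 (adjusted p = 0.111), with median-of-ratios scaling (0.0527), with the replicate block and with effective length as an offset (0.0597 for both). The smooth muscle count of calls higher was 6 without nexn+/+ replicate 1 and 0 without replicate 2, and the smtnb call was lost with effective length as an offset (log2(FC) -0.21).

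Partners of alpha-actinin at the Z-disc moved in both directions. Of 42 tested genes, 16 were higher and 3 lower by the test, nexn being one of these 3, with a median log2(FC) of 0.59. Over all tested genes, 16.7% were called higher and 13.9% lower (edgeR). The titin genes ttn.1 and ttn.2, which encode the spring protein anchored at the Z-disc by alpha-actinin, were lowest. ttn.1 had 389 and 340 CPM in nexn-/- embryos, against 1420 and 799 CPM in nexn+/+ embryos (log2(FC) -1.61, standard error 0.269, adjusted p = 0.0054, edgeR). ttn.2 had 374 and 336 CPM in nexn-/- embryos, against 1557 and 926 CPM in nexn+/+ embryos (log2(FC) -1.81, standard error 0.251, adjusted p = 0.00288, edgeR). At the other end, pdlim3b, an alpha-actinin-binding LIM protein, had 4.22 and 5.16 CPM in nexn-/- embryos, against 0.906 and 0.302 CPM in nexn+/+ embryos (log2(FC) 2.97). csrp3, the muscle LIM protein, had 22 and 28 counts in nexn-/- embryos and none in nexn+/+ embryos, at least 6.89-fold higher against the floor of 3 counts per library. The count of calls higher was 36 without nexn+/+ replicate 1, 18 without nexn+/+ replicate 2 and 2 on scaling to the fast fibre markers. The count of calls lower was 4, 5 and 0 in these fits.

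Genes that set thin filament length and guard its ends gave 3 calls higher and 0 lower among 14 tested (edgeR), with a median of 0.41. At an unadjusted p under 0.05, 1 was lower, and DESeq2 and limma-voom called 0 lower. The rates over all tested genes were 16.7% higher and 13.9% lower (edgeR). klhl41a and klhl40b, kelch proteins that stabilise thin filament proteins in skeletal muscle, were highest. klhl41a had 8.84 and 8.57 CPM in nexn-/- embryos, against 1.47 and 0.202 CPM in nexn+/+ embryos (log2(FC) 3.41). klhl40b had 8.03 and 6.91 CPM in nexn-/- embryos, against 2.44 and 0.252 CPM in nexn+/+ embryos (log2(FC) 2.51), and lost its call with DESeq2 (adjusted p = 0.147). lmod2a, a leiomodin, had no count in any library. Calls higher numbered 10 without nexn+/+ replicate 1 and 4 without replicate 2, and calls lower numbered 0 and 2.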

How the data were processed

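RNA-sequencing libraries of nexn-/- and nexn+/+ embryos were grouped by the genotype in their labels. Reads were mapped to GRCz11, and the submitters' processing notes name STAR and RSEM, whose versions are not given in the sources used here. The authors deposited estimated counts per gene, not normalized, of which between 92.0% and 93.2% of values above 0 were whole. The authors also deposited TPM, scaled to library total and gene length, and FPKM, which was used here only to derive effective lengths. All 4 tables carry the same library name in their column headings, so each library was taken from its deposition record, which the tables themselves could not verify.

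Counts were rounded, filtered with filterByExpr, scaled by TMM and tested with edgeR 4.0.16 (quasi-likelihood test, genotype as the only term) in R 4.3.3, with Benjamini-Hochberg adjustment over all tested genes. The common biological coefficient of variation was 0.146, with 2 residual degrees of freedom. A count of 0 was bounded by a floor of 3 counts, which covers counting error only. The test was also run on simulated data that had the same biological coefficient of variation for all genes and both genotypes. That setting lacks the wide gap between the nexn+/+ libraries, so it does not show how the test behaves here.

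Members and gene lists were chosen with earlier results of these data known. Named were all members, nexn, up to 2 called genes per list and direction with the most extreme log2 fold change, and the 5 genes most like the most abundant member. A few others (acta2, actb1, actb2, lmod2a, further heart genes and the other myhz1.1 and cct2 identifiers) were named after their values were seen.

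Alternatives were DESeq2 1.42.0, limma-voom (limma 3.58.1), other scalings, filters and fold change limits, a replicate block, effective length as an offset, unrounded counts and each library left out in turn. Deviations of same-numbered libraries from their genotype means were hardly correlated (-0.0391 over 20312 genes). The nexn-/- libraries were nearly level, so this value cannot show whether same-numbered libraries shared a clutch or batch. Sequences and coordinates were not analysed here.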

Additional observations from a re-analysis of the deposited data

How the results depend on the processing

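All 17 alternatives set out for the calls could be run. Members called higher numbered 4 with library size alone, 0 on scaling to the fast fibre markers, 0 with a mean of at least 10 CPM (which removes actn2b) and 3 with the replicate number as a block (ACTC1, actc1c and actn2b). With a library left out, they ranged between 0 and 8, and members called lower between 0 and 3. Over all genes, calls higher numbered 363 on scaling to the fast fibre markers, 1896 with at least 10 CPM and 2218 beyond a log2 fold change of 1. Calls lower numbered 34, 1545 and 922 in these settings and 1878 with library size alone. With a library left out, calls higher over all genes ranged between 4 and 4928 and calls lower between 0 and 3632. The share of calls that were higher was 54.5% with TMM, 70.2% with library size alone, 64.9% with upper quartile scaling, 91.4% on scaling to the fast fibre markers and 70.6% beyond a log2 fold change of 1, and library size and upper quartile moved the median of all genes by 0.147 and 0.103. The log2 fold change of actc1b was 0.188 with library size alone, 0.0998 with upper quartile scaling, 0.26 on the fast fibre scale, 0.13 with at least 10 CPM, 0.166 with limma-voom and 0.175 with the block. That of acta1a was 0.172, 0.076, 0.299, 0.105, 0.243 and 0.246 in the same order. With a library left out, log2 fold changes ranged between -0.582 and 0.929 for actc1b, -1.08 and 0.302 for acta1b, -0.458 and 0.993 for actn3a, -0.697 and 1.19 for acta1a, -0.136 and 1.14 for actn3b, 0.102 and 1.56 for actc1a, 0.395 and 2.86 for ACTC1 and 0.351 and 2.15 for actc1c. Leaving out either nexn+/+ library changes the level compared, as these members differed 2.42-fold to 5.5-fold between the nexn+/+ libraries. The filter at 10 CPM held fewer genes and the left-out fits fewer libraries. Why values moved in the other settings was not tested.

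Shares of sarcomeric actin by estimated counts in place of TPM, an alternative chosen after seeing the data, kept the signs, with acta1b at -5.31 in place of -4.23 percentage points, actc1b at 3.58 in place of 2.45 and actc1a at 1.17 in place of 1.26. The limits are the 2 libraries per genotype, the gap between the nexn+/+ libraries and the low level of heart markers in them. Further limits are the library names, which the table headings could not settle, and the low depth of actn2b, which had 59 to 215 counts.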

Other observations

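Further gene lists around actin are given beside the rates over all tested genes, 16.7% for calls higher and 13.9% for calls lower (edgeR). Whether any of these lists departed from those rates was not tested. Of 19 tested transcription factor genes of muscle, 7 were called higher and 1 lower (median log2 fold change 0.57). mrtfbb, a copy of the actin-sensing coactivator of serum response factor, had 13.5 and 11.7 CPM in nexn-/- embryos, against 4.36 and 3.23 CPM in nexn+/+ embryos (log2 fold change 1.73, adjusted p = 0.00219, edgeR). srfb, a copy of serum response factor itself, had 2.47 and 3.32 CPM in nexn-/- embryos, against 1.13 and 0.655 CPM in nexn+/+ embryos (log2 fold change 1.70, adjusted p = 0.0168, edgeR). mef2d, a myocyte enhancer factor, had 86.4 and 83.1 CPM in nexn-/- embryos, against 127 and 123 CPM in nexn+/+ embryos (log2 fold change -0.56, adjusted p = 0.00751, edgeR). mef2d was not called with library size alone (-0.41). Upper quartile scaling, scaling to the fast fibre markers, the filter at 10 CPM and effective length as an offset also gave 0 calls lower in this list. The count of transcription factors called higher was 12 without nexn+/+ replicate 1, 6 without nexn+/+ replicate 2 and 0 on scaling to the fast fibre markers or without either nexn-/- library.

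Of 10 tested actin turnover genes, 2 were called higher and 0 lower (edgeR, 2 lower at an unadjusted p under 0.05, 0 with DESeq2 and with limma-voom), both gelsolins, which sever actin filaments. gsnb had 117 and 123 CPM in nexn-/- embryos, against 75.3 and 54.5 CPM in nexn+/+ embryos (log2 fold change 0.89, adjusted p = 0.00745, edgeR), and 0.27 with effective length as an offset (adjusted p = 0.157). gsna had 36.9 and 37.7 CPM in nexn-/- embryos, against 29.0 and 19.6 CPM in nexn+/+ embryos (log2 fold change 0.62, adjusted p = 0.0381, edgeR). The count of calls higher in this list was 5 without nexn+/+ replicate 1 and 1 without replicate 2. Of 19 tested identifiers for the folding of actin and myosin, 0 were called higher, 0 were higher at an unadjusted p under 0.05 and 0 with DESeq2 or limma-voom. One identifier named cct2, a subunit of the chaperonin that folds actin, was called lower (log2 fold change -0.54, adjusted p = 0.0307, edgeR). It had 121 and 152 CPM in nexn-/- embryos, against 214 and 185 CPM in nexn+/+ embryos. The other cct2 identifier had 7.76 and 11.98 CPM in nexn-/- embryos and 9.91 and 8.62 CPM in nexn+/+ embryos. That identifier was not called (log2 fold change 0.09, adjusted p = 0.796, edgeR). In this list, 0 genes were called lower with library size alone, upper quartile scaling, scaling to the fast fibre markers or the filter at 10 CPM. Without nexn+/+ replicate 1, 4 folding genes were called higher and 0 lower, and without replicate 2, 0 were called higher and 2 lower.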
